A study of Mus musculus with 2 samples.

Results

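The genes described here are the nuclear genes for subunits of the mitochondrial respiratory chain and ATP synthase. They were taken by symbol (Nduf with a, b, c, s or v and a number, Sdha to Sdhd, Uqcr, Cox4 to Cox8 and Atp5), without pseudogene symbols and assembly factors, and with at least 20 UMIs (unique molecular identifiers, each standing for 1 captured RNA molecule) over both libraries. Of the 32285 genes measured, 83 met the rule: 35 of complex I, 4 of complex II, 8 of complex III, 19 of complex IV and 17 of complex V. Cox8c matched by symbol but had 0 UMIs. Ndufa4 and its relative Ndufa4l2 carry a complex I name but were counted with complex IV, in which the Ndufa4 protein is known to sit.

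The data are 2 single-cell RNA libraries of mouse hearts at E10.5 (embryonic days after conception), each from 4 pooled hearts. The library labelled wildtype was BubR1+/+ and the library labelled knockout was BubR1fl/fl, and both carried Nkx2.5-cre on 1 allele, so neither pool was free of Cre. Nkx2-5, the gene this Cre is named for, is active in cardiac progenitors, while most blood cells and macrophages arise elsewhere. Bub1b encodes BubR1, a protein of the spindle assembly checkpoint, and the study compared hearts of these 2 genotypes. With 1 library per genotype no test across replicates exists: each interval below is a 95% interval for counting error alone, and genotype cannot be told apart from pool, litter and library.

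Electrons from NADH enter the chain at complex I and those from succinate at complex II, pass through complex III and cytochrome c to complex IV, and reduce oxygen there. Complexes I, III and IV pump protons, and complex V uses the gradient to make ATP. Each of complexes I, III, IV and V joins nuclear subunits to a few encoded by mitochondrial DNA, whereas complex II is wholly nuclear. Several subunits of complex IV exist as a general form and a second form that heart and skeletal muscle, lung, testis or other tissues use. As the heart matures, the chain becomes its main source of ATP.

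In all, 7440 barcodes labelled wildtype and 5966 labelled knockout were used, with medians of 9504.5 and 17042.5 UMIs, and the libraries shared 8 barcode sequences. Barcodes were placed in classes by marker genes, with limits on barcodes and markers that were set after the data had been seen, and 27.1% and 27.3% of barcodes stayed in no class. The cardiomyocyte class held 734 and 679 barcodes. Its 10 of 10 sarcomere and calcium markers were at least 2-fold above the other classes in both libraries. In the mesenchymal and epicardial classes labelled knockout 9 of 10 own markers were. Barcodes were placed by these same markers, so this is no independent check of the classes. The other classes compared were endothelial or endocardial (1315 and 708), mesenchymal (1777 and 452), epicardial (570 and 1214), erythroid (719 and 1057) and macrophage (266 and 60). Hepatic (0 and 60), neural (13 and 0) and megakaryocyte (28 and 108) classes had under 50 barcodes in at least 1 library and were left out of the comparisons. Levels are given in CPM, a gene's share of all UMIs of the class, scaled to the usual common total. Bub1b stood at 55.7 CPM in cardiomyocytes labelled wildtype and 31.9 CPM in those labelled knockout. It was also lower in macrophages, at 81.4 and 43.1 CPM. In endothelial cells it stood at 25.1 and 33.8 CPM and in mesenchymal cells at 47.5 and 54.1 CPM. In epicardial cells it stood at 22.4 and 45.0 CPM and in erythroid cells at 5.26 and 34.1 CPM. The libraries count 3' ends of RNA and the labels do not say which exons are floxed, so these values need not reflect the deletion. Because each molecule is counted once at its 3' end, levels are compared between genes without dividing by length.

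Promoter sequences are shown first for a pair of complex IV isoforms, Cox8a and Cox8b, and for Sdhb, because the results turn on them: Cox8b had the lowest ratio between the libraries of all 81 members compared in cardiomyocytes, Cox8a is its general counterpart, and Sdhb had the next lowest ratio. Each runs from 250 bases before to 50 bases after the RefSeq start of the gene (build GRCm38.p6, the mm10 assembly), 5′ to 3′ on the gene's strand, and capitals mark matches to the ETS-type motif CCGGAAG on either strand. ETS-type sites are bound by GABP, a factor also called NRF-2 that is known to drive many genes of the chain. Cox8a lies at chr19:7217567-7217866 on the minus strand, Cox8b at chr7:140900397-140900696 on the minus strand, and Sdhb at chr4:140961021-140961320 on the plus strand.
Cox8a: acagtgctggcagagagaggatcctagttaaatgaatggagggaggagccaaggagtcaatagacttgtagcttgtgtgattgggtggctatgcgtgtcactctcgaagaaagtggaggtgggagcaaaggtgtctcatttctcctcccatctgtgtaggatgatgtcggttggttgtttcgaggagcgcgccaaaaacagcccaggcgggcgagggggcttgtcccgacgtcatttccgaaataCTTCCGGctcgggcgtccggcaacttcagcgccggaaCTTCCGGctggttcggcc
Cox8b: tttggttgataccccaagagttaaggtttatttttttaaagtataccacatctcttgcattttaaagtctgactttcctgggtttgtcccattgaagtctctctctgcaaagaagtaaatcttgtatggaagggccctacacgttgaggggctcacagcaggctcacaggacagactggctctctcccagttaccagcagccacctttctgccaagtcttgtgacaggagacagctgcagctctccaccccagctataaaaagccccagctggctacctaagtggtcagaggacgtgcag
Sdhb: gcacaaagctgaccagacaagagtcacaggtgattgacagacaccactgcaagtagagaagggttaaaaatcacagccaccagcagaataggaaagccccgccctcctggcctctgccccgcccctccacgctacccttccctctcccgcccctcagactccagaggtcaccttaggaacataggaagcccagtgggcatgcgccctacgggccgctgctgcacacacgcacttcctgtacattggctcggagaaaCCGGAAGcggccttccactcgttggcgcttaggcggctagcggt
The ETS-type letters occurred 2 times in the Cox8a window, 1 time in the Sdhb window and 0 times in the Cox8b window. Across the 72 promoters found for 67 members, 17 (23.6%) held them, against 8.86% of 32851 mouse promoters of the same length. The palindrome CGCATGCG, the core of the site of NRF1, another known activator of the chain, was in 9 member promoters (12.5%) against 1.87% of all; these belonged to Atp5g2, Atp5j, Atp5k, Atp5l, Cox6a1, Ndufa11, Ndufa8, Uqcr11 and Uqcrc1. The E-box CANNTG was in 66.7% of member promoters and 72.3% of all, and the letters of the MEF2-type motif were in 1.39% and 3.69%, searched on both strands. Each motif was counted on its own, so a base could count toward more than 1 of them. Member promoters had a median of 57.3% G and C against 52.7% for all promoters.

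The chain's nuclear genes marked out cardiomyocytes in both libraries. Together the 83 genes took 5.00% of all UMIs of cardiomyocytes labelled wildtype and 4.73% of those labelled knockout. In the other classes compared, apart from erythroid cells, they took between 1.69% (mesenchymal) and 1.96% (endothelial) in the library labelled wildtype. In the library labelled knockout they took between 2.07% (epicardial) and 2.40% (endothelial). In the classes left out they took 1.29% (megakaryocyte) and 2.09% (neural) labelled wildtype, and 2.25% (megakaryocyte) and 2.62% (hepatic) labelled knockout. Per barcode, the median share in cardiomyocytes was 5.21% labelled wildtype and 5.10% labelled knockout, with lower quartiles of 4.0% and 3.9%. Both lower quartiles lay above the median of every other class.

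Most members shared this elevation one by one. In the library labelled wildtype, 73 of 82 members with enough UMIs had a cardiomyocyte level at least 0.5 on the log2 scale above the highest other class, as did 7.49% of all 12035 genes. In the library labelled knockout it was 65 of 81 members, against 6.78% of 11910 genes. The median excess over the highest other class was 1.22 (log2) in the library labelled wildtype and 0.86 in the library labelled knockout, while over all genes the median was -0.82 and -0.70. The muscle isoform Cox6a2 stood furthest out, at 6.42 and 6.63 above the highest other class. The 9 members short of this distance in the library labelled wildtype were also short of it in the library labelled knockout: the second isoforms Cox4i2, Cox6b2 and Ndufa4l2, the carrier-ring isoform Atp5g2, the supercomplex factor Cox7a2l, and the complex I subunits Ndufa3, Ndufa7, Ndufb3 and Ndufs8.

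**Figure D1:**
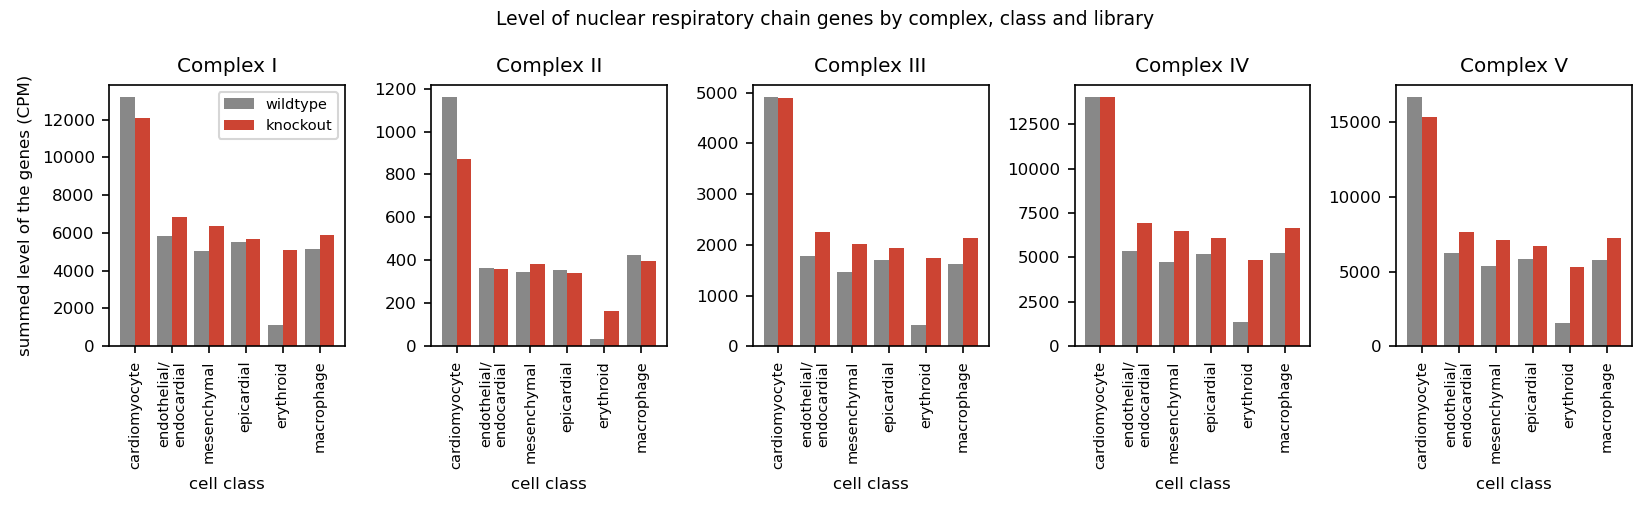
Summed level of the nuclear genes of each complex (CPM, bars from 0) in 6 cell classes, for the library labelled wildtype (grey) and the library labelled knockout (red), 1 library each. Cardiomyocytes stand highest in every complex and library; in complex II their bars are 1161 and 871 CPM.

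Summed by complex, the cardiomyocyte level was 13193 CPM labelled wildtype and 12101 CPM labelled knockout for complex I, and 16679 and 15358 CPM for complex V. Complex III was level, at 4915 and 4904 CPM, and so was complex IV, at 14034 and 14036 CPM. Among the sums complex II stood apart, at 1161 CPM (interval 1141 to 1181) labelled wildtype and 871 CPM (856 to 886) labelled knockout. The bars by complex and class show these values. The log2 ratio of the sums, knockout over wildtype, was -0.41 (-0.45 to -0.38) for complex II, -0.12 for both complex I and complex V, and 0.00 for complexes III and IV.

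For calls, and for medians and ranges over groups of genes unless called plain, the log2 ratio was taken relative to the median gene. The ratio is of CPM, knockout over wildtype. The median gene means the median ratio over all genes that had a minimum of 200 UMIs there, which was 0.07 in cardiomyocytes. Ratios printed beside the CPM of a single gene, with their intervals, are plain log2 ratios, not set relative to the median gene. In cardiomyocytes 81 members passed that minimum, and Ndufa4l2 and Cox7b2 did not. The median member had a plain log2 ratio of -0.09, or -0.15 relative to the median gene. Below the median gene were 64 members, and 17 were above it. Past a distance of 0.5 from the median gene, 5 members were lower in the library labelled knockout, namely Ndufs1, Ndufa10, Ndufb10, Sdhb and Cox8b, while 9.23% of all 9498 genes were. Cox4i2 was the 1 member higher by that distance, against 6.77% of all genes. Both counts are no larger a share than the background at this distance. At a distance of 0.3, however, 27 of 81 members were lower against 18.0% of all genes, a larger share than the background. It was also larger at 0.5 after free RNA was subtracted (17 of 80 against 12.3%). That subtraction treated all hemoglobin as free RNA, so it took out the highest share this allows. The share was 46.2% of cardiomyocyte UMIs labelled wildtype and 24.3% of those labelled knockout. In the main values the other 75 members lay within a distance of 0.5. Several of these genes have processed pseudogenes, and the labels and files do not say how reads shared with them were assigned.

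**Figure D2:**
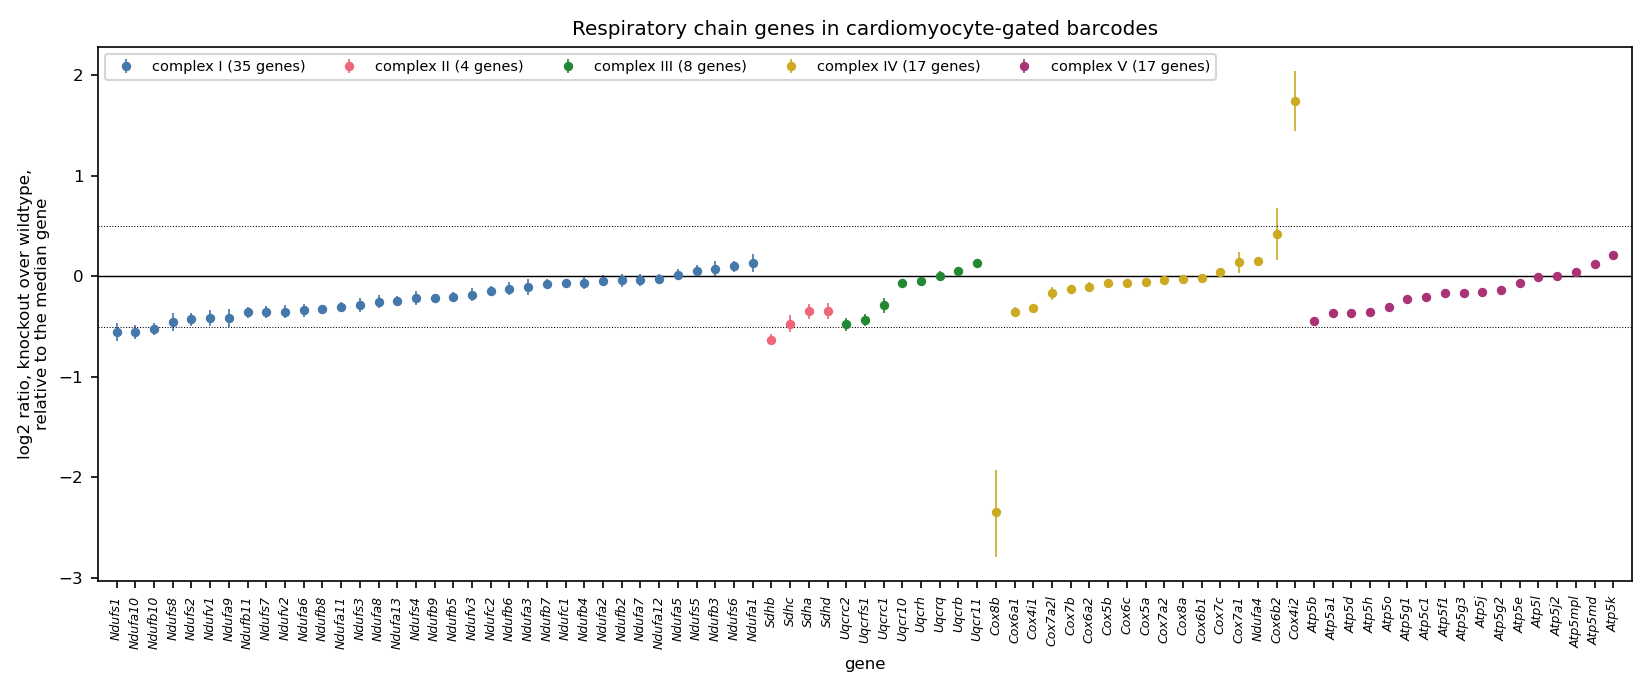
Log2 ratio of CPM, knockout over wildtype, relative to the median gene, for the 81 members with at least 200 UMIs in cardiomyocytes; points are genes grouped by complex, bars are 95% intervals for counting error, and dotted lines mark 0.5. Cox8b (-2.35) and Cox4i2 (1.74) lie far outside the band that holds the rest.

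Within the complexes the ratio differed by the role of the subunit. Complex I has 7 nuclear core subunits, which carry the flavin and the iron-sulfur clusters or line the quinone site, and 28 accessory subunits in this set. All 7 core subunits were below the median gene in cardiomyocytes, with relative log2 ratios from -0.56 to -0.29 and a median of -0.42. The 28 accessory subunits had a median of -0.13 and ranged from -0.56 to 0.13. The 7 core genes summed to 1824 CPM labelled wildtype and 1458 CPM labelled knockout, and the accessory genes to 11369 and 10643 CPM. The role groups were drawn from textbook knowledge after the values had been seen, so the contrast is a description. Ndufs8, Ndufs3, Ndufb10 and Ndufa4 were likewise chosen for naming after their values were seen.

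Among core subunits, Ndufs1, the largest iron-sulfur protein of complex I, stood at 183 CPM labelled wildtype and 130 CPM labelled knockout, a log2 ratio of -0.49 (-0.58 to -0.40). Ndufs8, which carries iron-sulfur clusters near the quinone site, stood at 170 and 130 CPM (-0.39, -0.48 to -0.30). Ndufs3 had the smallest difference of the 7, at 242 and 208 CPM (-0.22, -0.29 to -0.14). Of these 3 genes none had an interval that reached 0.

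The most abundant accessory subunits of complex I were Ndufb9, at 895 and 809 CPM, and Ndufb8, at 762 and 637 CPM. Ndufa10, an accessory subunit of the membrane arm, had the lowest ratio among accessory subunits, at 295 CPM labelled wildtype and 210 CPM labelled knockout (-0.49, -0.56 to -0.42). Ndufb10, also in the membrane arm, stood at 433 and 316 CPM (-0.45, -0.51 to -0.40). At the other end were the small subunit Ndufa1, at 154 and 177 CPM (0.20, 0.11 to 0.29), and Ndufs6, at 402 and 452 CPM (0.17, 0.11 to 0.22).

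All 4 subunits of complex II, the succinate dehydrogenase shared with the citric acid cycle, were lower in cardiomyocytes labelled knockout. Sdhb, the iron-sulfur subunit, stood at 494 CPM (5797 UMIs) labelled wildtype and 335 CPM (5049 UMIs) labelled knockout, a log2 ratio of -0.56 (-0.62 to -0.51). Sdha, the flavoprotein, stood at 242 and 199 CPM (-0.28, -0.36 to -0.21). The membrane anchors Sdhc, at 198 and 150 CPM (-0.40, -0.49 to -0.32), and Sdhd, at 226 and 187 CPM (-0.28, -0.35 to -0.20), were lower too. The median of the 4 was -0.41 relative to the median gene, close to the -0.42 of the complex I core subunits.

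Complex III split in the same way. The core proteins Uqcrc1 and Uqcrc2 and the Rieske iron-sulfur protein Uqcrfs1 had a median of -0.44 relative to the median gene, and the 5 small subunits a median of 0.01. Uqcrc2 stood at 368 and 276 CPM (-0.41, -0.47 to -0.35) and Uqcrfs1 at 374 and 290 CPM (-0.37, -0.43 to -0.31). The small subunits Uqcrh (1181 and 1198 CPM) and Uqcr10 (815 and 815 CPM) were the most abundant of the complex and nearly level. Uqcr11 stood at 622 and 712 CPM (0.20, 0.15 to 0.24) and Uqcrb at 695 and 756 CPM (0.12, 0.08 to 0.16). Cyc1, cytochrome c1, a catalytic subunit of the complex that the symbol rule leaves out, stood at 519 and 426 CPM (-0.28, -0.34 to -0.23).

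In complex V the 5 subunits of the catalytic F1 head had a median of -0.36 relative to the median gene, and the 12 others, of the membrane part and the stalks, a median of -0.14. Atp5b, the catalytic beta subunit and the most abundant gene of the complex in the library labelled wildtype, stood at 1663 CPM labelled wildtype and 1280 CPM labelled knockout (-0.38, -0.41 to -0.35). Atp5a1, the alpha subunit, stood at 1212 and 988 CPM (-0.29, -0.33 to -0.26). The small membrane subunits Atp5k, at 535 and 648 CPM (0.28, 0.23 to 0.32), and Atp5md, at 567 and 647 CPM (0.19, 0.14 to 0.23), had the highest ratios of the complex.

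Complex IV has its catalytic subunits in mitochondrial DNA, so its nuclear genes encode only supporting subunits. Its 12 general subunits had a median of -0.06 relative to the median gene. Cox4i1, the most abundant of all 83 genes in the library labelled wildtype, stood at 1881 and 1586 CPM (-0.25, -0.27 to -0.22), and Cox8a at 1788 and 1845 CPM (0.05, 0.02 to 0.07). Cox6a1 stood at 532 and 436 CPM (-0.29, -0.34 to -0.24), while Ndufa4 stood at 1302 and 1518 CPM (0.22).

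The division by role also runs along transcript length, since core subunits are larger proteins. The members' longest coding transcripts range from 360 to 4715 bases with a median of 861. In cardiomyocytes the 48 members under 1000 bases had a median ratio of -0.06 relative to the median gene and the 33 longer ones -0.33. Spearman's rho between length and ratio over the 81 members was -0.53, against -0.07 over 9100 other coding genes; genes of 1 library pair share its depth and capture, so both are descriptions. Within complex I the 10 accessory subunits of at least 1000 bases had a median of -0.21 and the 18 shorter ones -0.09, between them and the 7 core subunits at -0.42. Over members rho was -0.39 in endothelial and in mesenchymal cells, -0.31 in epicardial cells, -0.10 in macrophages and 0.23 in erythroid cells. The 81 ribosomal protein genes, which are short, had a median of 0.30 in cardiomyocytes. The 410 other coding genes under 1000 bases, without ribosomal proteins, had a median of 0.02 there, and the 8690 longer ones -0.002. The part of length in the contrast between core and accessory subunits was not tested beyond these values.

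**Figure D3:**
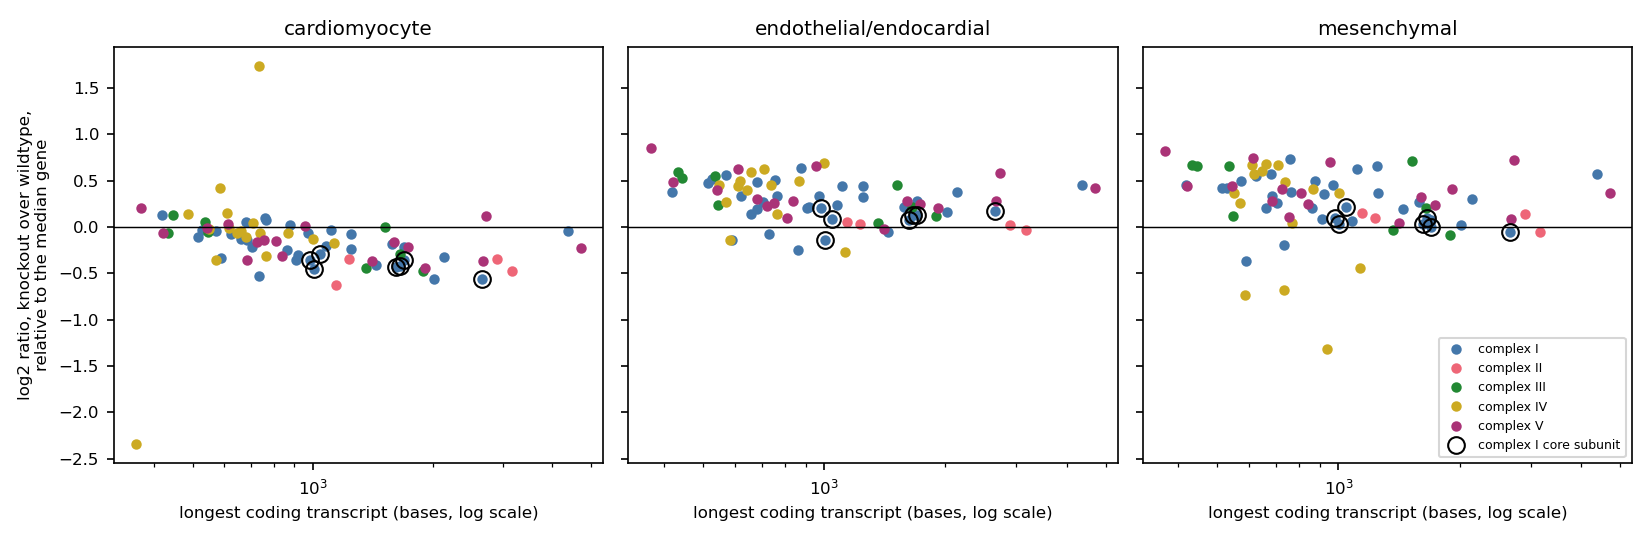
Log2 ratio, knockout over wildtype, relative to the median gene, against the length of the longest coding transcript (bases, log axis) for members with at least 200 UMIs in cardiomyocytes, endothelial cells and mesenchymal cells; colours are complexes and rings mark the 7 core subunits of complex I. In cardiomyocytes all ringed genes lie between -0.56 and -0.29, and in the other 2 classes they lie in the lower part of a cloud that sits mostly above 0.

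The cardiomyocyte values stood beside other differences between the same barcodes. Ckm, the muscle creatine kinase, stood at 180 and 2.85 CPM, Mb (myoglobin) at 528 and 29.1 CPM, Fabp3, a fatty acid binding protein of heart, at 826 and 432 CPM, and Hmga2, a gene of early embryonic stages, at 43.2 and 218 CPM. Of 7 muscle maturation genes with enough UMIs, 4 were lower by the distance (Tnni3 was the other) and 0 higher, against 9.23% and 6.77% of all genes. The remaining 3 lay within the distance: Pygm at 48.2 and 48.7 CPM, Tcap at 139 and 153 CPM, and Hrc at 60.6 and 71.1 CPM. On the list of stage genes that holds Hmga2, 7 had enough UMIs. Of these, 4 were higher by the distance and 1 lower (Igf2, at 526 and 307 CPM), and H19 stood at 935 and 797 CPM. Malat1, a nuclear RNA, stood at 8297 and 6724 CPM. Hemoglobin took 5.12% of cardiomyocyte UMIs labelled wildtype and 1.44% of those labelled knockout. All 10 epicardial markers had UMIs in the cardiomyocyte class, with sums of 172 and 339 CPM; the 10 mesenchymal markers summed to 463 and 301 CPM, and the 10 hepatic markers to 3.92 CPM (6 at 0, Alb and Hnf4a among them) and 47.5 CPM (none at 0). The part of stage, free RNA and other cells in the values above was not tested.

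Ventricular and atrial cardiomyocytes gave different medians. In barcodes with ventricular markers (296 and 292) the median member was at -0.14 relative to the median gene, with 62 of 80 below it. In barcodes with atrial markers (97 and 56) it was at 0.07, with 36 of 78 below it. The complex I core subunits were low in both, with a median of -0.39 in ventricular and -0.40 in atrial barcodes, and the accessory subunits lay at -0.11 and 0.07. Complex II was at -0.38 and -0.27. The difference between the chambers was not tested, since each has 1 library per genotype. With each barcode thinned to 3000 UMIs the plain log2 ratio of the median member in all cardiomyocytes was -0.01 in place of -0.09, and 3 of the 78 members then compared were lower by the distance, against 9.17% of all genes. After subtraction of free RNA at its highest share it was -0.27 and 17 of 80 members were lower, against 12.3% of all genes.

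Among the members compared in cardiomyocytes, the ratios furthest from the median gene in either direction were those of 2 second isoforms of complex IV, Cox8b and Cox4i2. Cox8b, the heart and muscle form of the smallest subunit (chr7:140898945-140900446 in mm10), had 219 UMIs (18.7 CPM) labelled wildtype and 58 UMIs (3.85 CPM) labelled knockout, a log2 ratio of -2.28 (-2.72 to -1.85). It made up 1.03% (0.90% to 1.18%) of the UMIs of Cox8a and Cox8b together in the library labelled wildtype and 0.21% (0.16% to 0.27%) in the library labelled knockout. After thinning every barcode to 3000 UMIs, 5.45% of cardiomyocytes labelled wildtype (40 of 734) and 0.74% of those labelled knockout (5 of 679) had a Cox8b UMI, against 21.0% and 7.51% without thinning. In thinned endothelial cells 0 of 1315 labelled wildtype had one, with a floor of 0.228% (3 counts) and an interval up to 0.280%. Of those labelled knockout it was 1 of 708 (0.141%). Median depths before thinning were 7737 and 11307 UMIs, against 14053 and 19451 in cardiomyocytes. So Cox8b lay above the endothelial share in cardiomyocytes labelled wildtype. In the library labelled knockout the interval of its thinned share in cardiomyocytes, 0.24% to 1.71%, overlapped that of endothelial cells, which reached 0.784%.

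Cox4i2, a form of subunit 4 known from lung and from hypoxic cells (chr2:152754173-152765037), went the opposite way. It had 118 UMIs (10.1 CPM) labelled wildtype and 531 UMIs (35.3 CPM) labelled knockout in cardiomyocytes, a log2 ratio of 1.81 (1.52 to 2.11). Its share of the Cox4 pair was 0.53% (0.44% to 0.64%) and 2.17% (1.99% to 2.36%), and 3.27% and 8.98% of thinned cardiomyocytes had a UMI. Its levels by class did not run in 1 direction. In mesenchymal cells it stood at 22.9 CPM labelled wildtype and 14.6 CPM labelled knockout, and in macrophages at 3.65 CPM (10 UMIs) and 35.7 CPM (48 UMIs). In endothelial cells it stood at 1.47 and 4.73 CPM and in epicardial cells at 0.91 and 6.10 CPM. The highest share of Cox4i2 in the pair was 3.65%, in macrophages labelled knockout.

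Cox6a2 and Cox7a1, the other heart and muscle forms, kept their place among cardiomyocytes. Cox6a2 (chr7:128205435-128206387) stood at 530 and 517 CPM, a log2 ratio of -0.04 (-0.09 to 0.01). Because Cox6a1 was lower, the muscle form's share of the Cox6a pair was 49.9% (49.0% to 50.8%) labelled wildtype and 54.2% (53.4% to 55.1%) labelled knockout. In the 5 other classes its share lay between 0.43% and 2.40%. Cox7a1 stood at 111 and 129 CPM (0.21, 0.10 to 0.31), or 9.81% and 10.9% of the pair with Cox7a2, which stood at 1025 and 1047 CPM. By plain ratio the 3 muscle forms differed in direction in all cardiomyocytes together: Cox8b was lower, Cox6a2 was level within its interval and Cox7a1 was slightly higher. The chambers differed, with a Cox6a2 share of 45.8% labelled wildtype and 51.8% labelled knockout in ventricular barcodes, but 67.2% and 61.2% in atrial ones. The Cox7a1 share was 8.96% and 9.85% in ventricular and 14.5% and 12.4% in atrial barcodes, with overlapping intervals in each chamber. The part of the chamber mix in the pooled values was not tested.

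Cox6b2, the testis form of subunit 6b, was highest in erythroid cells in the library labelled knockout and in epicardial cells in the library labelled wildtype. In erythroid cells it stood at 37.1 CPM labelled wildtype and 102 CPM labelled knockout, which was 28.8% (26.0% to 31.6%) and 21.6% (20.9% to 22.4%) of the pair with Cox6b1. In epicardial cells it stood at 66.4 and 20.8 CPM, or 16.05% (14.6% to 17.6%) and 4.37% (4.0% to 4.8%), and in mesenchymal cells at 27.5 and 16.9 CPM, or 7.69% and 3.25%. In the epicardial class the 10 mesenchymal markers summed to 4511 CPM labelled wildtype and 1377 CPM labelled knockout, beside 3656 and 2753 CPM for its own 10 markers; their part in its values was not tested. In cardiomyocytes it stood at 16.5 and 23.2 CPM (0.49, 0.23 to 0.75), or 1.82% and 2.44%, beside Cox6b1 at 893 and 927 CPM. Ndufa4l2, a relative of Ndufa4 known to be induced by hypoxia, stood at 6.99 and 7.57 CPM in cardiomyocytes, under the minimum for comparison, and at 18.8 CPM (328 UMIs) and 7.70 CPM (50 UMIs) in mesenchymal cells. Cox7b2, a testis form, had 25 and 12 UMIs in cardiomyocytes.

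**Figure D4:**
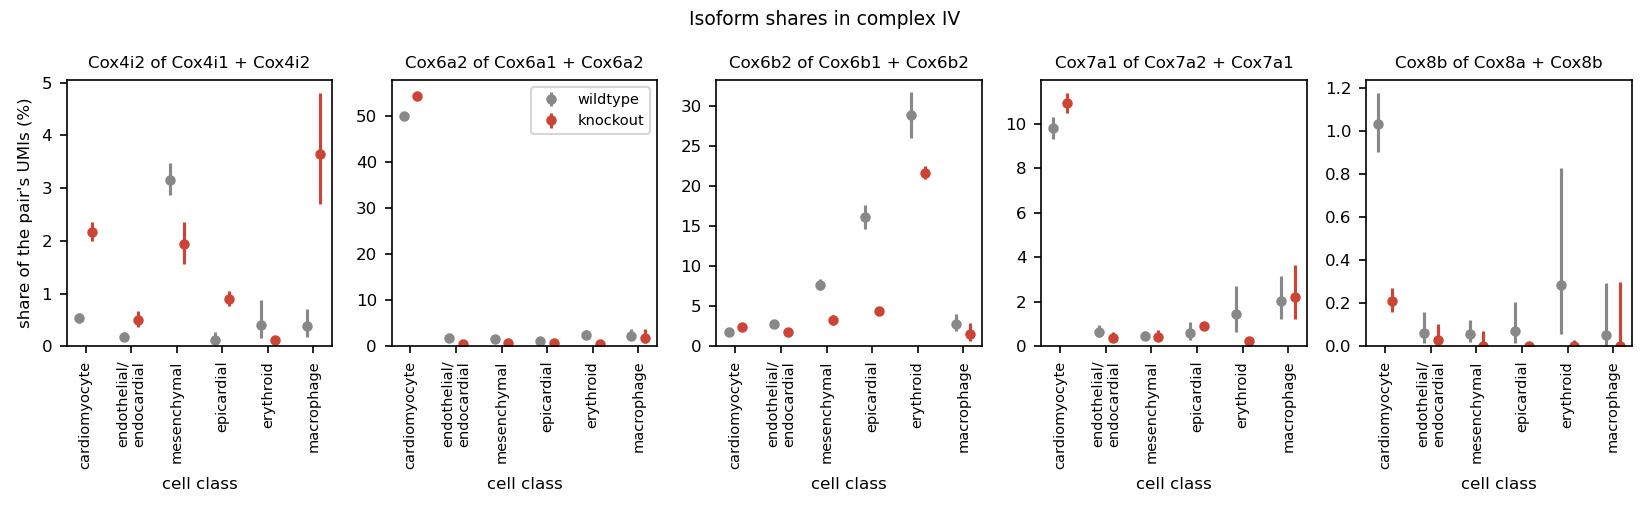
Share of each pair's UMIs held by the second isoform of complex IV subunits (%), by cell class, in the library labelled wildtype (grey) and the library labelled knockout (red); bars are 95% Clopper-Pearson intervals. In both libraries Cox6a2, Cox7a1 and Cox8b have their highest share in cardiomyocytes and Cox6b2 in erythroid cells.

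The 3 genes Atp5g1, Atp5g2 and Atp5g3 encode the same mature protein of the rotating ring of ATP synthase, and their mix differed between classes. In cardiomyocytes Atp5g1 led, with 45.5% of the UMIs of the 3 labelled wildtype (1549 CPM) and 44.2% labelled knockout (1389 CPM), ahead of Atp5g3 with 31.9% and 32.4% and Atp5g2 with 22.6% and 23.4%. In endothelial cells Atp5g2 led with 46.2% and 44.8%, and Atp5g1 had 31.3% and 33.8%. Atp5g2 led likewise in mesenchymal (46.3% and 41.5%) and epicardial cells (46.4% and 43.8%). In macrophages Atp5g2 had 44.9% labelled wildtype and 36.2% labelled knockout, where Atp5g1 came first with 42.2%. In erythroid cells Atp5g1 led as in cardiomyocytes, with 52.1% and 46.8%, and Atp5g2 had 20.8% and 28.4%. Between the libraries the cardiomyocyte mix differed by under 2 percentage points for each gene, less than the gap between cardiomyocytes and endothelial cells.

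Outside cardiomyocytes the members tended the other way. In endothelial cells the median member was at 0.28 relative to the median gene, with 68 of 77 above it; 14 were higher by at least 0.5, against 7.92% of all 9046 genes, and 0 were lower, against 10.2%. In mesenchymal cells the median was 0.33, with 20 of 79 higher (9.57% of 9828 genes) and 3 lower (15.4%), the 3 being the second isoforms Cox4i2, Cox6b2 and Ndufa4l2. In macrophages, with 60 barcodes labelled knockout, the median was 0.25, with 11 of 75 higher (18.2% of 3706 genes) and 0 lower (20.3%). In epicardial cells it was 0.07, with 7 of 77 higher (14.2% of 9949 genes) and 3 lower (16.2%), namely Cox6b2, Ndufa6 and Cox7a2l.

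**Figure D5:**
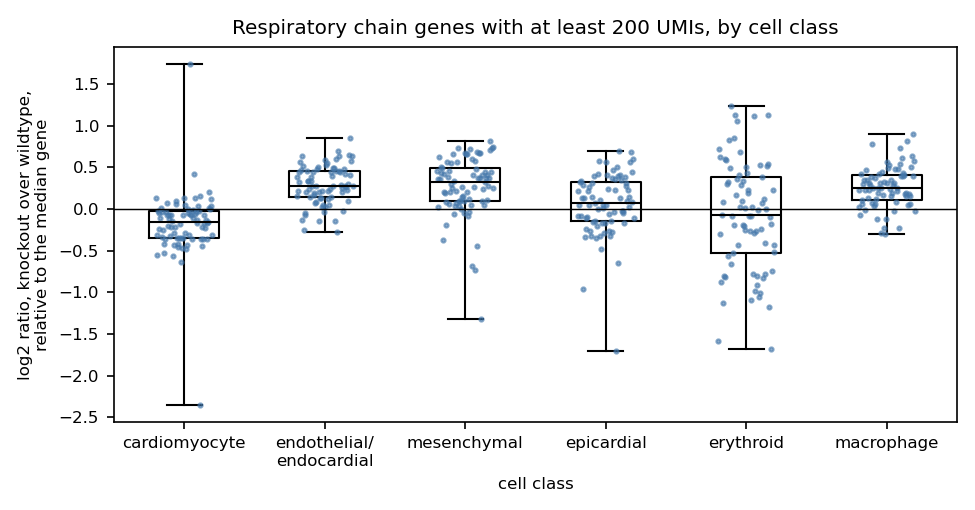
Log2 ratio, knockout over wildtype, relative to the median gene of each class, for members with at least 200 UMIs; points are genes, boxes span the quartiles with the median as a line, and whiskers reach the extremes. The medians are -0.15 in cardiomyocytes, 0.28 in endothelial, 0.33 in mesenchymal, 0.07 in epicardial, -0.07 in erythroid cells and 0.25 in macrophages.

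Of 75 members compared in the 5 classes other than erythroid, 67 had their lowest relative ratio in cardiomyocytes, and 45 were below the median gene there and above it in endothelial cells, mesenchymal cells and macrophages. Another 14, among them Atp5k, Atp5md, Uqcr11, Uqcrb, Cox7c and Ndufa1, were above it in all 5. Sdhc, Ndufa6 and Cox7a2l were below it in all 5. The matching shares over all genes were not computed, so these counts do not say how far members differ from other genes. Atp5k, with the highest ratio among endothelial members, stood at 163 and 286 CPM in endothelial cells (0.81, 0.72 to 0.89) and at 149 and 271 CPM in mesenchymal cells (0.86, 0.77 to 0.95).

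The order of complex I roles recurred in endothelial, mesenchymal and epicardial cells but was slight in macrophages. Core and accessory medians were -0.20 and 0.05 in epicardial cells, and 0.21 and 0.24 in macrophages. The F1 subunits of complex V were at 0.25 in endothelial cells and 0.40 in macrophages, against 0.35 and 0.30 for its other subunits. In endothelial cells the complex I core subunits had a median of 0.13 and the accessory subunits 0.33; in mesenchymal cells they had 0.03 and 0.36. Complex II was near the median gene in both, at 0.02 and 0.12. Ndufs1 stood at 47.3 and 51.7 CPM in endothelial cells (0.13, -0.05 to 0.31) and Sdhb at 131 and 131 CPM (0.01, -0.10 to 0.12), so for both genes the interval held 0 there. Malat1 was lower in the library labelled knockout in these classes too, at 12555 and 6101 CPM in endothelial and 11882 and 6544 CPM in mesenchymal cells. Hemoglobin took 3.86% and 0.69% of endothelial UMIs, and 4.77% and 0.45% of mesenchymal UMIs. The part of these in the members' ratios was not tested.

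Erythroid cells differed between the libraries in so many genes that their members cannot be set beside the other classes. Hemoglobin took 81.9% of their UMIs labelled wildtype and 46.1% labelled knockout, and the median gene had a log2 ratio of 2.27. Relative to it the median member was at -0.07, with 21 of 77 lower (34.8% of 5829 genes) and 16 higher (34.3%). The nuclear genes of the chain took 0.45% and 1.71% of erythroid UMIs.

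The 13 protein genes of mitochondrial DNA had a median close to that of the nuclear members in cardiomyocytes, though not in every complex. They summed to 87612 CPM labelled wildtype and 84376 CPM labelled knockout, with a median of -0.16 relative to the median gene, against -0.15 for the nuclear members. Nuclear UMIs per mitochondrial UMI were 0.570 and 0.560. Relative to the median gene, mt-Co1, mt-Co2 and mt-Co3 of complex IV were at -0.29, -0.28 and -0.22, against a nuclear median of -0.06. The mitochondrial genes of complex I ran from -0.64 to 0.58, against a nuclear median of -0.21. For complex III mt-Cytb was at -0.04, against -0.06. For complex V mt-Atp6 and mt-Atp8 were at -0.07 and -0.45, against -0.16. In cardiomyocytes mt-Nd6 was lower (294 and 198 CPM) and mt-Nd3 higher (1331 and 2092 CPM) by the distance. Both encode subunits of complex I, and mt-Nd6 is the only one of the 13 genes on the other strand of mitochondrial DNA. Elsewhere they went the same way, with mt-Nd3 at 1.01 in endothelial, 0.76 in mesenchymal and 0.73 in epicardial cells and 0.55 in macrophages. In the same order mt-Nd6 was at -0.25, -0.43, -0.26 and -1.15 relative to the median gene. In endothelial cells the same 13 genes had a median of 0.27 and summed to 59820 and 70369 CPM. In macrophages they had a median of -0.09 while the nuclear members were at 0.25.

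Genes that work with the chain were described from fixed lists with the same minimum. In cardiomyocytes 9.23% of all genes were lower by the distance and 6.77% higher. The 12 genes of the citric acid cycle had a median of -0.36 relative to the median gene there, with 4 lower and 0 higher. Among these 4 were Idh3g (150 and 96.3 CPM) and Idh3b (170 and 119 CPM), subunits of NAD-dependent isocitrate dehydrogenase, and Fh1, fumarase (149 and 109 CPM). Cs, citrate synthase, stood at 170 and 161 CPM. Among 13 regulators, 2 were lower and 0 higher: Ppargc1a, which encodes the coactivator PGC-1alpha, at 208 and 142 CPM (-0.55, -0.64 to -0.47), and Esrrb, an orphan receptor, at 17.6 and 12.3 CPM. Nrf1 stood at 54.1 and 56.0 CPM, Gabpa at 34.4 and 31.1 CPM, and Tfam, which packages mitochondrial DNA, at 43.8 and 50.5 CPM.

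The 32 assembly factors, which build the complexes without staying in them, had a median of -0.02 with 0 lower and 0 higher, and the 78 mitochondrial ribosomal genes a median of -0.02 with 0 lower and 1 higher (Mrpl36). The 11 transport genes had a median of -0.14 with none past the distance, as had the 6 partner proteins of the complexes at -0.15. Over all genes in cardiomyocytes, 9.23% were lower and 6.77% higher by the distance. In endothelial cells the citric acid cycle was at 0.11 with none past the distance. The mitochondrial ribosomal genes were at 0.25 there with 5 of 78 higher, no larger a share than the 7.92% of all genes.

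Over the 12 values of 6 classes and 2 libraries, the genes outside the symbol rule whose log2(CPM + 10) followed the members' summed level most closely were Ndufab1 (Pearson r = 0.99), Timm17a (0.99), Mrps22 (0.99), Mdh2 (0.98) and Mrpl16 (0.98), among 6139 genes of at least 50 CPM. Ndufab1, the acyl carrier protein found in complex I, stood at 752 and 676 CPM in cardiomyocytes and at most at 238 and 316 CPM elsewhere. Mdh2, malate dehydrogenase of the citric acid cycle, stood at 556 and 446 CPM. Cardiomyocytes held the highest 2 of the 12 summed levels, and the likeness without them was not computed.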

How the data were processed

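Single-cell RNA was counted with the 10x 3' kit (v3.1), per the labels' protocols, and the authors deposited raw UMI counts per gene and barcode, made with Cell Ranger 7.1.0 on mm10, per the submitters' processing notes. No source used here gives the authors' cell filters. Barcodes with at least 3000 UMIs, at least 500 genes and at most 20% mitochondrial UMIs were kept. The filter on genes removed 3642 barcodes labelled wildtype and 15 labelled knockout. A barcode joined a class with at least 6 of 10 cardiomyocyte markers or 3 of another class, leading the next class by at least 2. Barcodes short of that lead stayed out, which removes some doublets. A barcode with fewer markers of a second class could still be kept, and no doublet caller was used in the main values. Counts were summed per class and library and given as CPM. Log2 ratios, with exact 95% intervals from the counts (Poisson for levels, Clopper-Pearson for shares), were computed for genes with at least 200 UMIs; no test was possible with 1 library per group. Intervals and floors (3 counts) cover counting error only. The distance used to call a gene higher or lower, 0.5 on the log2 scale, is measured from the median gene.

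The named genes are all members of the isoform groups and, in each complex, the 2 most abundant, 2 lowest and 2 highest ratios. The members and lists were chosen with earlier results of these data known. Of the genes counted in the lists, 1 is not reported here. Transcript lengths and positions are from GENCODE vM21. Alternatives were other limits on UMIs, mitochondrial share, markers and genes, another total, thinning, subtraction of free RNA (barcodes with 10 to 100 UMIs), removal of the highest doublet scores, chambers and other distances. The free RNA subtracted was the highest share that hemoglobin allows, or cardiomyocyte markers in erythroid cells. In mesenchymal cells it was 43.0% of UMIs labelled wildtype and 7.61% of those labelled knockout. Python 3.11.15, NumPy 2.4.6, SciPy 1.17.1, pandas 2.3.3 and matplotlib 3.10.9 were used, and the scripts were tested on simulated data.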

Additional observations from a re-analysis of the deposited data

Results flagged for a closer look

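The median log2 ratio of the members, knockout over wildtype and not set relative to the median gene, was -0.09 in cardiomyocytes and had the opposite sign in the other classes. It was 0.23 in endothelial cells, 0.36 in mesenchymal cells, 0.10 in epicardial cells, 0.26 in macrophages and 2.21 in erythroid cells, where the median gene was at 2.27. The difference between classes was not tested, since each class has 1 library per genotype.

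Ndufb1-ps, which the symbol rule leaves out as a pseudogene symbol, had 9411 UMIs (118.5 CPM over all barcodes used) in the library labelled wildtype and 23290 UMIs (210.1 CPM) in the library labelled knockout. It entered no comparison above.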

How the results depend on the processing

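Of 143 values recomputed under alternatives, 102 stayed within the counting interval or within 1.5 times the count, 40 moved and 1 reversed; no cause was tested. All log2 ratios here are plain medians, knockout over wildtype, in cardiomyocytes unless a class is named. Thinning to 3000 UMIs gave -0.0052 for all members, 3 lower members (9.17% of all genes), -0.019, -0.25, 0.060, 0.085 and -0.0074 for complexes I to V, and 0.31 in endothelial cells. Subtracting free RNA gave -0.27, 17 lower (12.3%) and 2 higher members (14.6%), -0.38, -0.65, -0.19, -0.21 and -0.31 for complexes I to V, 0.58 in mesenchymal cells, and shares of 0.418% for Cox4i2 labelled wildtype, 51.5% and 56.9% for Cox6a2, and 0.838% for Cox8b labelled wildtype. Removing the highest doublet scores (443 and 285 barcodes) gave -0.031, 3 lower members (8.79%), and 0.080 and 0.070 for complexes III and IV. Ventricular barcodes alone had 2 lower members (9.13% of all genes). Atrial barcodes alone had a median of 0.10, 3 higher members (8.69%), 4 lower members (11.2%) and a complex I core median 0.47 below the accessory one (a difference of -0.47, against -0.28 in all cardiomyocytes). A distance of 0.3 gave 27 lower members (18.0% of all genes) and 2 higher (15.4%), a distance of 1 gave 1 lower member (2.76%), and a distance measured from 0 gave 2 (7.59%).

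Set relative to the median gene, an alternative chosen after seeing the data, the medians were -0.15 for all members and -0.21, -0.058, -0.060 and -0.16 for complexes I, III, IV and V, and the erythroid median reversed from 2.21 to -0.068. The erythroid median was 1.49 with the stricter markers and 0.95 with a total free of mitochondrial, hemoglobin and ribosomal protein genes. The core minus accessory difference, also added after seeing the data, was negative in all 8 alternatives. No paired analysis was possible because each group has 1 library and the labels give no replicate numbers. Depth limits the second isoforms: Cox8b rests on 58 UMIs and Cox7b2 on 12 in cardiomyocytes labelled knockout.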
